A study of Mus musculus with 18 samples.

Results

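Hif1a was deleted in mouse natural killer (NK) cells that had also lost Ahr, and the added effect was read as a difference between 2 knockout effects. It is the log2 difference between Hif1a Ahr KO and Hif1a Ahr flox cells, minus the log2 difference between Ahr KO and Ahr flox cells. It uses 12 of the 18 libraries, 3 in each of these 4 groups, and all 16743 genes that passed a filter on low counts. NK cells came from spleen and had spent 7 days at 1% oxygen with 1700 U/ml of recombinant human interleukin 2 (IL-2), the same in every group.

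Hif1a Ahr KO cells carried loxP-flanked (flox) Hif1a and Ahr with Ncr1-iCre, a recombinase driven by the gene of the NK receptor NKp46. Hif1a Ahr flox cells had both flox genes without it. Ahr KO cells carried flox Ahr with Ncr1-iCre, and Ahr flox cells had flox Ahr alone. The remaining 6 libraries, 3 of Hif1a KO cells (flox Hif1a with Ncr1-iCre) and 3 of Hif1a flox cells, serve below for comparison and share no library with the 4 groups. Each knockout group carries the recombinase and each flox group lacks it, so an effect of it that both lines share leaves the difference of effects. No group has the recombinase without a flox gene, and no group here was kept in normal oxygen. The labels call the libraries biological replicates but do not say whether each came from its own mouse. P-values then measure the spread between these cultures.

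HIF-1 is the transcription factor through which most cells answer low oxygen. Prolyl hydroxylases mark its subunit HIF-1α for destruction while oxygen is plentiful. When oxygen is scarce the subunit persists, pairs with Arnt and switches on genes for sugar uptake, glycolysis, mitophagy and new blood vessels. The aryl hydrocarbon receptor (AhR) is a ligand-activated factor that needs the same partner. NK cells are lymphocytes that kill infected or transformed cells with perforin and granzymes, and activated NK cells draw heavily on glucose.

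Adding the loss of Hif1a to cells without Ahr raised 1440 genes (8.6% of those tested) and lowered 1303 (7.78%), 16.4% in all. Counts of list members that rose or fell, given below, are to be read against these shares. A gene is called at an adjusted p under 0.05 (Benjamini-Hochberg) in edgeR's quasi-likelihood test over all 16743 genes. It is said to have risen where the knockout effect was more positive in the Hif1a Ahr line than in the Ahr line and to have fallen where it was more negative, so a rise can come from either line. Log2 values are given with their standard error (SE), and levels as CPM, counts scaled to a common library size, in each library. Of the called genes, 381 rose and 589 fell by at least 2-fold. At an unadjusted p under 0.05 there were 4900 genes, and DESeq2 and limma called 3111 and 2809. The split between higher and lower moved with the scaling, to 1810 higher and 987 lower when libraries were scaled by their totals alone and 1836 and 973 with limma on the deposited values. The knockout effects behind the difference were of unequal size: 5242 genes were called in Hif1a Ahr KO against Hif1a Ahr flox cells (31.3%) and 1157 in Ahr KO against Ahr flox cells (6.91%), 357 higher (2.13%) and 800 lower (4.78%). That count rested on single libraries: without Ahr flox replicate 1 or 3 the 800 were 357 or 442, without Ahr KO replicate 2 or 3 they were 395 or 495, and the 357 were 110 to 184 without Ahr flox replicate 1 or 3 or any Ahr KO library. Between the flox groups 31 genes were called in Hif1a Ahr flox against Ahr flox cells (0.185%), 20 higher (0.119%) and 11 lower (0.0657%), whereas Hif1a Ahr KO against Ahr KO cells gave 5833 (34.8%).

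Libraries held 54420649 to 55732940 estimated counts. The 9 NK markers tested summed to 11834 to 12256 CPM in Hif1a Ahr KO cells, 14213 to 14267 CPM in Hif1a Ahr flox cells, 14317 to 16297 CPM in Ahr KO cells and 13865 to 17339 CPM in Ahr flox cells. None of the 4 B cell and 3 erythroid markers passed the filter on low counts. In bulk RNA, fewer cells of a type and less RNA per cell cannot be told apart.

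The deleted genes were read first. Hif1a itself had 185, 220.0 and 170.5 CPM in Hif1a Ahr KO cells, against 58.2, 58.7 and 62.4 CPM in Hif1a Ahr flox cells, 65.2, 67.6 and 68.9 CPM in Ahr KO cells and 59.5, 61.3 and 66.8 CPM in Ahr flox cells. It was thus highest where it was deleted, with a difference of effects of 1.58 ± 0.15 (adjusted p = 1.3e-06), and did not overlap any other of the 4 groups. A count over the whole gene includes transcripts of exons outside the deleted part, so it does not check the deletion. Ahr had 57.0, 41.4 and 68.2 CPM in Hif1a Ahr KO cells, against 78.0, 52.2 and 68.8 CPM in Hif1a Ahr flox cells, 90.7, 88.6 and 97.0 CPM in Ahr KO cells and 73.8, 77.0 and 78.5 CPM in Ahr flox cells, and its difference of effects was -0.53 ± 0.28 (adjusted p = 0.24). In an edgeR fit with a block for each line and replicate number, Ahr was called, at -0.53 ± 0.11 (adjusted p = 0.0034). Ncr1, whose gene drives the recombinase, was about as much higher in both knockout groups, by 1.06 in the Hif1a Ahr line and 0.97 in the Ahr line, and its difference of effects was 0.09 ± 0.15 (adjusted p = 0.73). Arnt, the shared partner, gave 0.23 ± 0.10 (adjusted p = 0.11).

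Genes of the HIF oxygen response fell together. Of 12 HIF subunits, oxygen sensors and partners, 4 fell and Hif1a alone rose. Egln3 encodes a prolyl hydroxylase that marks HIF-1α and is itself a HIF target. It had 26.7, 14.9 and 23.9 CPM in Hif1a Ahr KO cells, against 260.3, 398 and 238 CPM in Hif1a Ahr flox cells, 359, 396 and 336 CPM in Ahr KO cells and 275, 336 and 293 CPM in Ahr flox cells. The 3 Hif1a Ahr KO libraries lay far below the other 9, which ran between 238 and 398 CPM, and the difference of effects was -4.05 ± 0.39 (adjusted p = 1.2e-05). Egln1, the main oxygen sensor of the family, fell, at -1.32 ± 0.11 (adjusted p = 1.6e-07), Arnt2, a relative of Arnt, at -2.45 ± 0.40 (adjusted p = 0.001), and Vhl, which recognises hydroxylated HIF-1α for destruction, at -0.28 ± 0.08 (adjusted p = 0.02). The Vhl call was lost with library totals (adjusted p = 0.17), with limma (0.17), with no filter (0.18), with only the 12 libraries (0.0538) and without Ahr KO or Ahr flox replicate 2 (0.063 and 0.0531). Of 32 HIF targets outside sugar metabolism, 22 fell and 2 rose, against 7.78% lower and 8.6% higher among all genes. The list's median difference was -1.52, whereas that of all genes tested was -0.01. Vegfa, the growth factor of blood vessels, had 51.5, 46.6 and 38.5 CPM in Hif1a Ahr KO cells, against 218, 316 and 201 CPM in Hif1a Ahr flox cells, 311, 269 and 267 CPM in Ahr KO cells and 265, 247 and 237 CPM in Ahr flox cells, and gave -2.60 ± 0.24 (adjusted p = 3.1e-06). Narf fell, at -2.38 ± 0.15 (adjusted p = 1.1e-08), Mif, a secreted cytokine, at -1.75 ± 0.12 (adjusted p = 2.5e-08), and Zfp395, a zinc finger protein, at -1.89 ± 0.13 (adjusted p = 2.9e-08). Bhlhe41, a clock repressor, was one of the 2 that rose, at 2.68 ± 0.50 (adjusted p = 0.0011), and Plod1, a collagen lysyl hydroxylase, the other, at 0.53 ± 0.11 (adjusted p = 0.0024). Plod1 was lower in Ahr KO against Ahr flox cells, at -0.39 ± 0.08 (adjusted p = 0.0046), and at 0.14 in the Hif1a Ahr line, whereas Bhlhe41 was higher in the Hif1a Ahr line, at 3.86. Members that were not called included Ddit4, an inhibitor of mTORC1, at -0.45 ± 0.48 (adjusted p = 0.59).

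**Figure D1:**
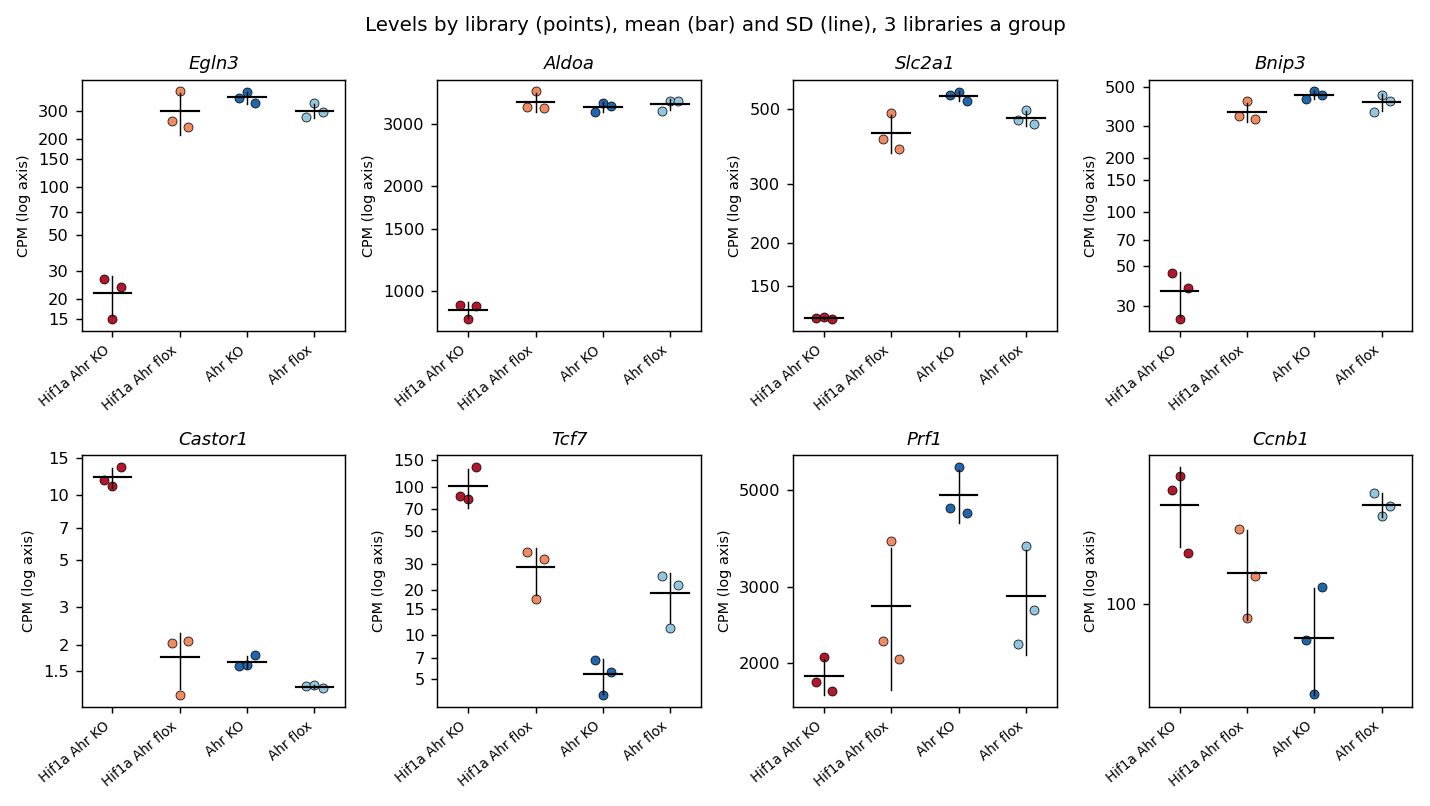
Level of 8 genes in each library (points, CPM on a log axis) with the mean (bar) and SD (vertical line) of 3 libraries in Hif1a Ahr KO, Hif1a Ahr flox, Ahr KO and Ahr flox cells. Egln3, Aldoa, Slc2a1 and Bnip3 are lowest and Castor1 and Tcf7 highest in the Hif1a Ahr KO libraries, Prf1 is highest in Ahr KO cells, and Ccnb1 has its lowest mean in Ahr KO cells.

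Promoters are shown for 3 HIF-regulated genes with large falls, Egln3 (a sensor), Slc16a3 (a lactate exporter) and Bnip3 (a mitophagy receptor), and for Smtnl2, which had the most negative of the 10 largest falls chosen for genes of at least 1 CPM without overlap between groups. Each runs from 250 bases before to 50 bases after the start of transcription in RefSeq's GRCm38.p6 annotation (Egln3, chr12:54203825-54204124, minus strand; Slc16a3, chr11:120948817-120949116, plus strand; Bnip3, chr7:138909457-138909756, minus strand; Smtnl2, chr11:72411664-72411963, minus strand). Capitals mark ACGTG, the core that HIF binds in its common form, and GCGTG, its other form and the core of the AhR motif, on either strand.
Egln3: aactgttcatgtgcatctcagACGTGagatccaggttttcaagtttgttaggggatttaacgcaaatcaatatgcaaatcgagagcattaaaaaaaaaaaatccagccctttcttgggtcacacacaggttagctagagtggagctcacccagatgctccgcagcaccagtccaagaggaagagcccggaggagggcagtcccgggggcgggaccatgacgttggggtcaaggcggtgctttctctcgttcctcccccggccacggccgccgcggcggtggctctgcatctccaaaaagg
Slc16a3: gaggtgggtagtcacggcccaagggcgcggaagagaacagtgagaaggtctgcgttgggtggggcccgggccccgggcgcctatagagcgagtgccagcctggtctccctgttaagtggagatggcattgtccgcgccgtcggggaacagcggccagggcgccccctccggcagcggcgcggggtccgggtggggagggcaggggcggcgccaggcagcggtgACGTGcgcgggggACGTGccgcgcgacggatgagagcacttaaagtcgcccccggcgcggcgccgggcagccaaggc
Bnip3: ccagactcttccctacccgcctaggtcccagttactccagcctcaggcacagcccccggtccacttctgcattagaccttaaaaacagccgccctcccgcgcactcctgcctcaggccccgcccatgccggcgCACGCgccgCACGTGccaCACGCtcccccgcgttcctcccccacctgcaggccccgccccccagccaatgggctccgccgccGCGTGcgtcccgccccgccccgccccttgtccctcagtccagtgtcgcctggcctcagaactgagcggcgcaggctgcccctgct
Smtnl2: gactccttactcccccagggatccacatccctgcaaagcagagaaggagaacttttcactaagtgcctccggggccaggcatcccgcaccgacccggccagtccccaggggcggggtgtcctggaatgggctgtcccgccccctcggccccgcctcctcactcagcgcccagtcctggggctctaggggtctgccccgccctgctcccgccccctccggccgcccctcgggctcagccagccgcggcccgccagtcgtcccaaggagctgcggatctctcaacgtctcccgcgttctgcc
ACGTG stood in 53.2% of the 47 windows of glycolysis and HIF target members that fell (25 windows, from 32 of 38 such genes with an entry). It stood in 30.0% of the windows of genes called lower by at least 2-fold, 17.6% of those called higher by at least 2-fold, 24.7% of those of all tested genes and 19.6% of all 32851 windows. GCGTG stood in 55.3% of the members' windows, 37.6% and 37.0% of those of the lower and higher genes, and 47.9% of those of tested genes. The Smtnl2 window held neither motif. One of the 2 member lists holds known HIF targets, and only members that fell in these data were counted. Their share is therefore no independent sign of control by HIF, which was not tested. A match is a string of letters and not a measured binding site.

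Sugar metabolism carried the most uniform fall. Of 20 glycolysis genes, 16 fell and 0 rose, with a median difference of -1.79. The fall reached nearly every step. Hk2, which traps glucose in the cell, gave -1.44 ± 0.14 (adjusted p = 1e-06), and Pfkl, a subunit of the committed step, -2.67 ± 0.14 (adjusted p = 2.8e-09). Aldoa, which splits the 6-carbon sugar, had 915, 830.4 and 908 CPM in Hif1a Ahr KO cells, against 3348, 3723 and 3328 CPM in Hif1a Ahr flox cells, 3244, 3447 and 3381 CPM in Ahr KO cells and 3272, 3480 and 3480 CPM in Ahr flox cells, and gave -1.95 ± 0.11 (adjusted p = 3.9e-09). Its 3 Hif1a Ahr KO libraries lay below the other 9 without overlap. Gapdh gave -1.61 ± 0.12 (adjusted p = 4.4e-08), Pgk1 -2.20 ± 0.14 (adjusted p = 1.1e-08), Eno1 -2.17 ± 0.13 (adjusted p = 7.6e-09), Pkm -1.90 ± 0.12 (adjusted p = 7.6e-09), and Ldha, which turns pyruvate into lactate, -1.84 ± 0.12 (adjusted p = 1.1e-08). The 4 that were not called were Pfkm, the muscle form of phosphofructokinase, at -0.20, Pfkfb4 at -0.28, Bpgm at 0.07 and Eno2 at 0.58. In the lines themselves, 17 of 20 were lower in Hif1a Ahr KO against Hif1a Ahr flox cells, with a median of -1.83, and 1 of 20 in Ahr KO against Ahr flox cells, with a median of 0.00; that 1 call was lost without Ahr KO replicate 1 or 2 or Ahr flox replicate 1 or 3.

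Transport followed the enzymes. The glucose carrier Slc2a1 had 119.8, 121 and 119 CPM in Hif1a Ahr KO cells, against 408, 488 and 381 CPM in Hif1a Ahr flox cells, 553, 563 and 528 CPM in Ahr KO cells and 463, 496 and 452 CPM in Ahr flox cells. Its difference of effects was -2.05 ± 0.13 (adjusted p = 7.6e-09), and that of the second carrier, Slc2a3, -1.78 ± 0.17 (adjusted p = 1.4e-06). Slc16a3, the lactate exporter, had 43.7, 24.6 and 38.7 CPM in Hif1a Ahr KO cells, against 387, 387 and 365 CPM in Hif1a Ahr flox cells, 438, 451 and 446 CPM in Ahr KO cells and 434, 441 and 433 CPM in Ahr flox cells, and fell, at -3.44 ± 0.23 (adjusted p = 8.3e-08). Its chaperone Bsg gave -0.88 ± 0.11 (adjusted p = 1.5e-05). Slc16a1, the exporter's relative, was at -0.05 ± 0.13 (adjusted p = 0.86). Slc2a6, another carrier, was at 1.71 ± 0.60 (adjusted p = 0.071), and was called higher without Hif1a Ahr flox replicate 3 or Ahr flox replicate 2. In glycogen metabolism 6 of 12 genes fell and 0 rose; 1 rose without Hif1a Ahr KO replicate 1 or Ahr flox replicate 2. They included Pgm1 (-1.81), which links glucose phosphates, Gys1 (-0.89), the synthase, Gbe1 (-1.38), the branching enzyme, the breakdown enzyme Pygl (-2.70), and the phosphatase subunit Ppp1r3b (-1.16).

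Of 27 genes of pyruvate entry and the TCA cycle, 2 fell and 2 rose, shares near those of all genes (7.78% and 8.6%). Pdk1, the kinase that closes the entry of pyruvate into mitochondria, had 55.6, 38.5 and 55.2 CPM in Hif1a Ahr KO cells, against 261, 275 and 235 CPM in Hif1a Ahr flox cells, 265, 287 and 259.5 CPM in Ahr KO cells and 259.8, 298 and 267 CPM in Ahr flox cells, a difference of -2.34 ± 0.16 (adjusted p = 2.1e-08). Cs, citrate synthase, rose by 0.36 ± 0.09 (adjusted p = 0.011). In the pentose phosphate pathway 4 of 8 fell, among them Pgd at -0.70 ± 0.09 (adjusted p = 2.8e-05); without Ahr KO replicate 3, with only the 12 libraries or with library totals the count was 2. The 2 TCA cycle genes that rose were 1 without Hif1a Ahr KO replicate 1, Hif1a Ahr flox replicate 1 or 2, Ahr KO replicate 1 or 2 or Ahr flox replicate 2 or 3, 4 without Hif1a Ahr flox replicate 3 and 5 with library totals. Of 42 nuclear genes of the respiratory chain 1 was called, Uqcrq, a subunit of complex III, at 0.42 ± 0.13 (adjusted p = 0.028). Its adjusted p passed 0.05 without Ahr flox replicate 2 or 3, Hif1a Ahr flox replicate 1, Hif1a Ahr KO replicate 1 or 2 or Ahr KO replicate 1, where it reached 0.072. Without Hif1a Ahr flox replicate 3 the list had 7 called higher, with library totals 8, and without Hif1a Ahr KO replicate 1 it had 2 called lower.

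Among 14 genes of hypoxic mitochondrial remodelling and mitophagy, 7 fell and 1 rose. Bnip3, a receptor that marks mitochondria for removal, had 45.4, 25.2 and 37.5 CPM in Hif1a Ahr KO cells, against 343, 413 and 331 CPM in Hif1a Ahr flox cells, 429, 471 and 447 CPM in Ahr KO cells and 361, 449.8 and 417 CPM in Ahr flox cells, and fell, at -3.46 ± 0.27 (adjusted p = 6e-07). Its relative Bnip3l gave -1.45 ± 0.13 (adjusted p = 3.7e-07). Larger falls were seen for Mgarp, a mitochondrial protein, at -4.35 ± 0.34 (adjusted p = 3.3e-07), and for Ak4, a mitochondrial adenylate kinase, at -4.14 ± 0.30 (adjusted p = 4e-07). Ndufa4, a subunit of cytochrome oxidase, rose by 0.85 ± 0.17 (adjusted p = 0.0025). The list's median of -0.97 was -1.52 without Hif1a Ahr KO replicate 2.

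Transcripts of the mitochondrial genome moved the other way. Of 13, 6 rose and 0 fell, with a median difference of 0.68. A share of counts was taken over all genes with a symbol beginning mt-, not these 13 alone, with no filter on low counts. That share was 4.09 ± 0.45% in Hif1a Ahr KO cells, 2.03 ± 0.14% in Hif1a Ahr flox cells, 2.36 ± 0.26% in Ahr KO cells and 2.09 ± 0.14% in Ahr flox cells (SD, n = 3). mt-Co1, a catalytic subunit of cytochrome oxidase, had 14398, 18232 and 18046 CPM in Hif1a Ahr KO cells, against 8047, 8695 and 7333 CPM in Hif1a Ahr flox cells, 9578, 11974 and 10153 CPM in Ahr KO cells and 8426, 10148 and 8228 CPM in Ahr flox cells, a difference of 0.83 ± 0.18 (adjusted p = 0.0031). Its 3 Hif1a Ahr KO libraries lay above the other 9. mt-Cytb gave 1.18 ± 0.30 (adjusted p = 0.014) and mt-Atp6 0.95 ± 0.22 (adjusted p = 0.0078). With no filter on low counts, 3 of the 13 were called.

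**Figure D2:**
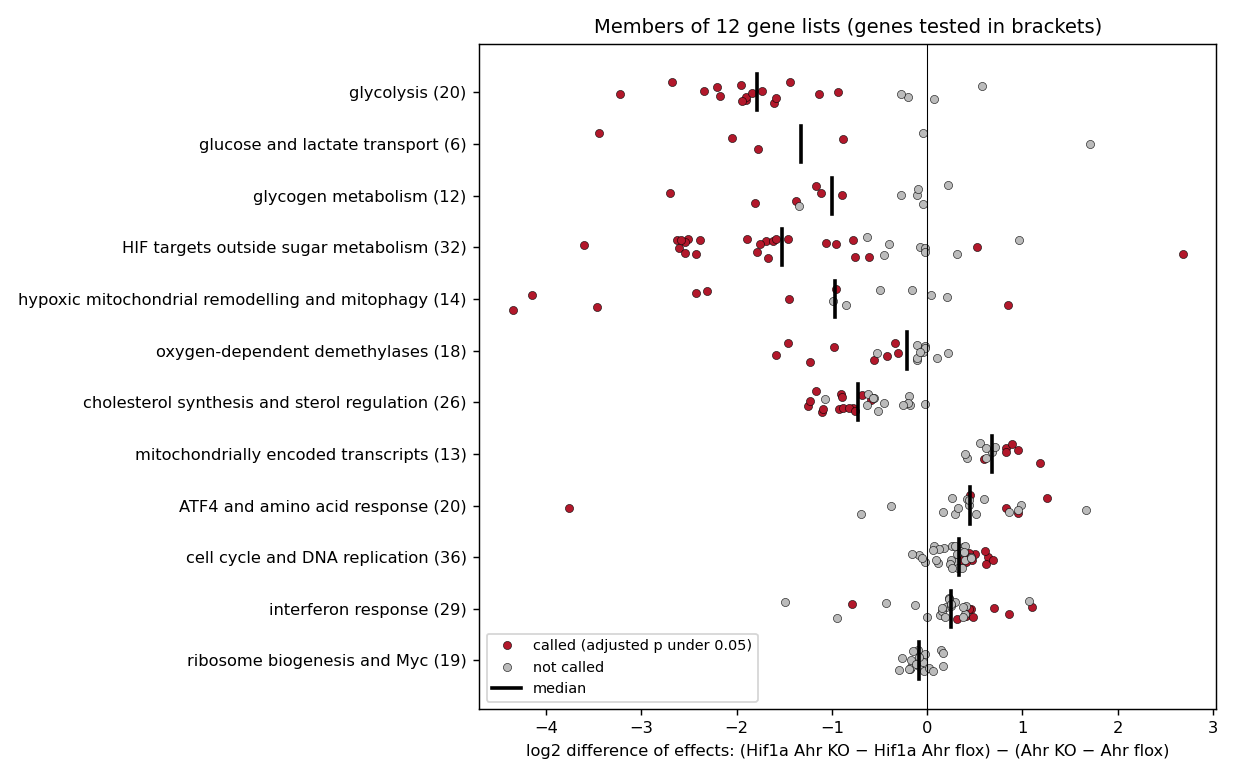
Log2 difference of effects (horizontal axis) for each tested member of 12 gene lists (rows, number of members in brackets), with called members in red, others in grey and the list median as a black bar. Members of glycolysis, transport, HIF target and sterol lists lie mostly left of 0, with medians of -1.79, -1.33, -1.52 and -0.72, and those of the mitochondrial genome right of 0, with a median of 0.68.

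Sterol synthesis fell as well. Of 26 genes, 14 fell and 0 rose, with a median of -0.72, against 7.78% lower among all genes. When 1 library was left out, 11 to 20 fell and the median lay between -0.83 and -0.55. Fdps, a farnesyl diphosphate synthase, had 173, 178 and 155 CPM in Hif1a Ahr KO cells, against 309, 428 and 280.3 CPM in Hif1a Ahr flox cells, 409, 376 and 381 CPM in Ahr KO cells and 343, 358 and 345 CPM in Ahr flox cells. Its Hif1a Ahr KO libraries were the lowest without overlap, and the Hif1a Ahr flox libraries were the most spread. The difference was -1.16 ± 0.18 (adjusted p = 0.00032). Lss, which closes the sterol ring, gave -1.11 ± 0.18 (adjusted p = 0.00035), and the feedback regulator Insig1 -0.89 ± 0.13 (adjusted p = 0.00013). Among fatty acid genes 5 of 15 fell and 2 rose. Fasn, fatty acid synthase, fell, at -0.68 ± 0.11 (adjusted p = 0.00043) and Srebf1, a factor that drives such genes, at -0.51 ± 0.10 (adjusted p = 0.0024). The desaturase Fads1 rose by 0.88 ± 0.14 (adjusted p = 0.00021) and the elongase Elovl5 by 0.66 ± 0.10 (adjusted p = 0.00021). Without Hif1a Ahr KO replicate 3, Hif1a Ahr flox replicate 2, Ahr flox replicate 1 or Ahr flox replicate 3, the count of fatty acid genes that fell was 3.

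A few genes of the amino acid response were called. Of 20 ATF4 and amino acid response genes, 4 rose and 1 fell (2 without Hif1a Ahr flox replicate 1), against 8.6% higher and 7.78% lower among all genes. Slc7a5, the carrier of large neutral amino acids, had 466, 699.9 and 438 CPM in Hif1a Ahr KO cells, against 164, 225 and 147 CPM in Hif1a Ahr flox cells, 265, 296 and 279.7 CPM in Ahr KO cells and 191, 269.5 and 213 CPM in Ahr flox cells, a difference of 1.26 ± 0.30 (adjusted p = 0.011). Sesn2, a leucine sensor, rose by 0.95 ± 0.15 (adjusted p = 0.00021) and Mthfd2, an enzyme of mitochondrial folate metabolism, by 0.83 ± 0.20 (adjusted p = 0.0081). Vldlr, a lipoprotein receptor counted in this list and also known as a HIF target, fell, at -3.75 ± 0.55 (adjusted p = 0.00034). Atf4 itself was at -0.38 ± 0.20 (adjusted p = 0.22). The count of the list called higher ran from 3 to 7 when 1 library was left out. It was 7 without Hif1a Ahr KO replicate 3 or with library totals. In the list of mTOR and energy sensing, 3 of 17 rose, against 8.6% of all genes. Castor1, an arginine sensor upstream of mTORC1, had 11.7, 11.05 and 13.6 CPM in Hif1a Ahr KO cells, against 2.03, 1.16 and 2.08 CPM in Hif1a Ahr flox cells, 1.59, 1.61 and 1.79 CPM in Ahr KO cells and 1.28, 1.29 and 1.25 CPM in Ahr flox cells, and gave 2.40 ± 0.28 (adjusted p = 1.3e-05). Its relative Castor2 gave 1.58 ± 0.20 (adjusted p = 3.1e-05) and the kinase subunit Prkaa1 0.42 ± 0.08 (adjusted p = 0.00078). Of 19 ribosome biogenesis and Myc genes edgeR called 0, and 1 without Hif1a Ahr KO replicate 1 or Hif1a Ahr flox replicate 1 or 3. Myc itself, a driver of growth, was at -0.09 ± 0.14 (adjusted p = 0.73).

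Genes of the cell cycle showed a different shape. In Ahr KO against Ahr flox cells 21 of 36 cell cycle and DNA replication genes were lower (4.78% of all genes), with a median of -0.38. These groups also differ by the recombinase, whose effect does not cancel within a line. The 21 were 9 without Ahr KO replicate 2, 11 without Ahr flox replicate 1 and 12 without Ahr flox replicate 3, with medians of -0.29, -0.33 and -0.36. In Hif1a Ahr KO against Hif1a Ahr flox cells 2 of the 36 were lower and 0 higher (16.5% of all genes were lower there), with a median of -0.05. The difference of effects called 10 of the 36 higher and 0 lower, with a median of 0.33. Ccnb1, the cyclin of mitotic entry, had 128, 132 and 112 CPM in Hif1a Ahr KO cells, against 118, 96.9 and 106 CPM in Hif1a Ahr flox cells, 92.4, 82.0 and 104 CPM in Ahr KO cells and 128, 121 and 124 CPM in Ahr flox cells. The mean was lowest in Ahr KO cells, whose libraries overlapped those of Hif1a Ahr flox cells, and the Hif1a Ahr KO and Ahr flox libraries overlapped too. Its difference of effects was 0.64 ± 0.12 (adjusted p = 0.0014). Plk1, a mitotic kinase, gave 0.61 ± 0.13 (adjusted p = 0.0023), Kif11, a spindle motor, 0.69 ± 0.15 (adjusted p = 0.0036), Kif20a 0.47 ± 0.10 (adjusted p = 0.0027) and Rrm2, which makes deoxynucleotides, 0.60 ± 0.16 (adjusted p = 0.013). The replication helicase genes Mcm2 to Mcm7 were at -0.09 to 0.12 and none was called. The count of 10 was 5 without Ahr flox replicate 1, Hif1a Ahr flox replicate 2 or Ahr KO replicate 2, and 6 without Hif1a Ahr KO replicate 1, Hif1a Ahr KO replicate 2 or Ahr flox replicate 3. It was 6 when only the 12 libraries were fitted. In the Hif1a line 27 of 36 were higher in Hif1a KO against Hif1a flox cells (17.6% of all genes), with a median of 0.45.

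**Figure D3:**
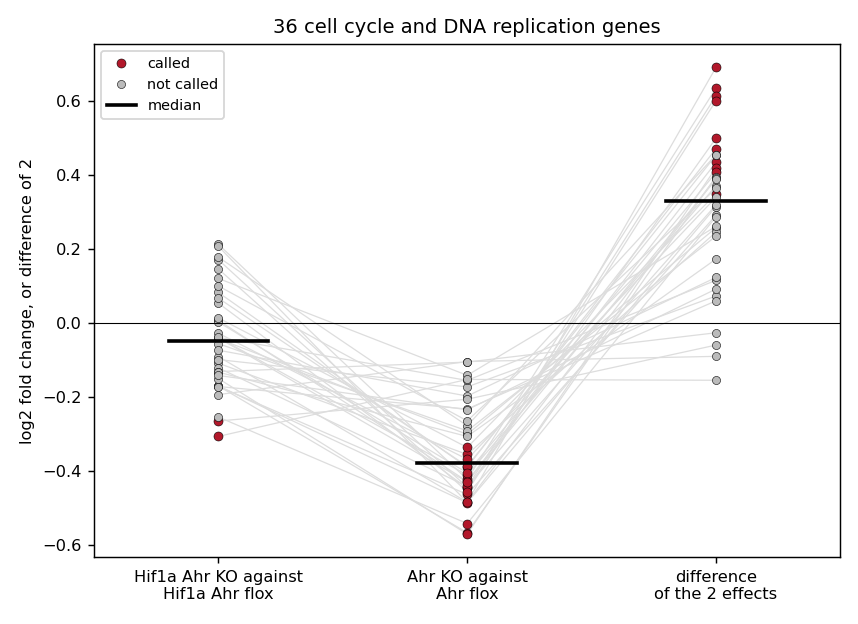
Log2 fold change of 36 cell cycle and DNA replication genes in Hif1a Ahr KO against Hif1a Ahr flox cells (left) and in Ahr KO against Ahr flox cells (middle), and the difference between these effects (right). Each grey line is 1 gene, red points are called, and black bars are medians, at -0.05, -0.38 and 0.33.

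Genes of the killing machinery were called in both directions. Of 20 genes of granzymes, perforin and granules, 4 fell and 2 rose, against 7.78% lower and 8.6% higher among all genes. Prf1, perforin, had 1803, 2066 and 1724 CPM in Hif1a Ahr KO cells, against 2241, 3817 and 2042 CPM in Hif1a Ahr flox cells, 4546, 5663 and 4423 CPM in Ahr KO cells and 2213, 3720 and 2643 CPM in Ahr flox cells. It was highest in the 3 Ahr KO libraries, while those of Hif1a Ahr KO cells overlapped those of Hif1a Ahr flox cells and lay below those of Ahr flox cells. Its difference of effects missed the threshold at -1.31 ± 0.42 (adjusted p = 0.0501). Gzmb, the main granzyme of mouse NK cells, was at -0.30 ± 0.17 (adjusted p = 0.26). Gzmc gave -0.60 ± 0.16 (adjusted p = 0.017), a call lost when only the 12 libraries were fitted (adjusted p = 0.0509). Lamp1, a membrane protein of lytic granules, rose by 0.63 ± 0.09 (adjusted p = 7.4e-05), and Gzmm by 1.21 ± 0.25 (adjusted p = 0.0023). The count of genes that fell was 1 without any of Hif1a Ahr KO replicates 2 and 3, Hif1a Ahr flox replicate 2, Ahr KO replicate 2 and Ahr flox replicates 1 and 3, and 2 without Ahr KO replicate 1. Ifng, interferon gamma, was at -0.05 ± 0.44 (adjusted p = 0.96). Tnf, the inflammatory cytokine, had 34.3, 24.5 and 48.1 CPM in Hif1a Ahr KO cells, against 7.87, 5.46 and 12.3 CPM in Hif1a Ahr flox cells, 9.35, 5.26 and 8.21 CPM in Ahr KO cells and 8.40, 5.96 and 7.60 CPM in Ahr flox cells, a difference of 2.00 ± 0.51 (adjusted p = 0.016). The cytokine list gave 3 of 19 higher and 2 lower, to be read against the same shares of all genes. Without Hif1a Ahr KO replicate 3, Ahr KO replicate 1 or Ahr flox replicate 3 the 3 became 1.

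Of 18 homing and chemokine receptors 3 rose and 2 fell (4 without Hif1a Ahr KO replicate 3), against 8.6% higher and 7.78% lower among all genes. Tcf7 encodes TCF-1, a factor of early NK cells and of stem-like T cells. It had 86.7, 81.9 and 136 CPM in Hif1a Ahr KO cells, against 36.2, 17.3 and 32.5 CPM in Hif1a Ahr flox cells, 6.71, 3.91 and 5.64 CPM in Ahr KO cells and 24.7, 11.2 and 21.5 CPM in Ahr flox cells. Here the lines moved in opposite directions, 1.82 ± 0.36 (adjusted p = 0.0018) in the Hif1a Ahr line and -1.82 ± 0.39 (adjusted p = 0.014) in the Ahr line, and the difference was 3.64 ± 0.53 (adjusted p = 0.00046). Cxcr3, a chemokine receptor, differed mainly through the Ahr line. It had 9.34, 9.93 and 13.7 CPM in Hif1a Ahr KO cells, against 9.86, 7.78 and 7.01 CPM in Hif1a Ahr flox cells, 2.66, 3.41 and 3.29 CPM in Ahr KO cells and 8.07, 7.83 and 6.47 CPM in Ahr flox cells. It was lower in Ahr KO against Ahr flox cells, at -1.26 ± 0.17 (adjusted p = 0.00022), and had a difference of effects of 1.68 ± 0.24 (adjusted p = 9.7e-05). Ccr2, another chemokine receptor, rose by 0.54 ± 0.12 (adjusted p = 0.0032). Cxcr4, a receptor that holds cells in the bone marrow, fell, at -1.46 ± 0.31 (adjusted p = 0.0036) and Itgam, the integrin CD11b, at -1.39 ± 0.34 (adjusted p = 0.014).

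Of 30 NK receptors and adaptors 5 rose and 5 fell. Slamf7, an activating receptor, had 125, 114 and 134 CPM in Hif1a Ahr KO cells, against 216, 237 and 195 CPM in Hif1a Ahr flox cells, 263, 241 and 229 CPM in Ahr KO cells and 224, 222 and 209.9 CPM in Ahr flox cells, a difference of -0.96 ± 0.11 (adjusted p = 8.8e-06). Cd244a gave -0.78 ± 0.10 (adjusted p = 4.7e-05) and Fcgr3, the Fc receptor CD16, -0.81 ± 0.12 (adjusted p = 0.00021). Among those that rose, Klrb1f, a C-type lectin receptor, gave 1.37 ± 0.25 (adjusted p = 0.0014). Cd96, a receptor for nectin-like ligands, had 154, 123 and 152 CPM in Hif1a Ahr KO cells, against 237, 205 and 238 CPM in Hif1a Ahr flox cells, 96.4, 102 and 94.2 CPM in Ahr KO cells and 256, 221 and 239 CPM in Ahr flox cells. It was lower in both knockout groups than in their flox groups, less so in the Hif1a Ahr line, and its difference was 0.63 ± 0.14 (adjusted p = 0.0039). The 5 that rose became 3 without Hif1a Ahr KO replicate 3, Ahr KO replicate 2 or Ahr flox replicate 3. Among 16 checkpoint receptors and ectonucleotidases, Entpd1, the ectonucleotidase CD39, fell, at -1.64 ± 0.26 (adjusted p = 0.00067) and Tnfrsf9, the costimulatory receptor 4-1BB, at -0.72 ± 0.15 (adjusted p = 0.0023). The inhibitory receptor Cd300a rose by 3.10 ± 0.37 (adjusted p = 1.4e-05).

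Of 20 transcription factors of NK cells and innate lymphoid cells of type 1 (ILC1), 4 rose and 4 fell, against 8.6% and 7.78% of all genes. Nfil3, which NK cells need to develop, fell, at -0.99 ± 0.18 (adjusted p = 0.0012). Prdm1, which encodes Blimp-1, fell, at -1.47 ± 0.27 (adjusted p = 0.0017). Zeb2, a factor of NK maturation, rose by 0.71 ± 0.14 (adjusted p = 0.0022). Eomes, a defining factor of NK cells, was at 0.02 ± 0.22 (adjusted p = 0.96). The counts were 2 higher and 2 lower without Ahr KO replicate 2 or Ahr flox replicate 1, and 2 lower without Hif1a Ahr KO replicate 2, Hif1a Ahr flox replicate 2 or Ahr flox replicate 3. Among 15 genes of ILC1 and tissue residency, 4 fell and 2 rose. Itga1, the integrin CD49a, had 55.1, 34.1 and 56.0 CPM in Hif1a Ahr KO cells, against 182, 193 and 156 CPM in Hif1a Ahr flox cells, 312, 313 and 323 CPM in Ahr KO cells and 235, 297 and 239.6 CPM in Ahr flox cells. Its Hif1a Ahr KO libraries were lowest and its Ahr KO libraries highest, with a difference of -2.17 ± 0.27 (adjusted p = 7.2e-05). The interleukin 18 receptor Il18r1 rose by 1.78 ± 0.28 (adjusted p = 0.00063).

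The cells were grown on IL-2, and genes of its pathway changed in both directions. Of 16 genes of the IL-2 receptor and STAT5 axis, 6 rose and 1 fell. Jak3, the kinase of the common gamma chain, had 105, 106 and 122 CPM in Hif1a Ahr KO cells, against 285, 288 and 249 CPM in Hif1a Ahr flox cells, 279, 305 and 288 CPM in Ahr KO cells and 294, 311 and 294 CPM in Ahr flox cells, a difference of -1.26 ± 0.12 (adjusted p = 1e-06). Il2ra, the high-affinity receptor chain, rose by 1.19 ± 0.28 (adjusted p = 0.0095), Socs3, a feedback inhibitor, by 0.88 ± 0.19 (adjusted p = 0.0034) and Lif, a cytokine of the IL-6 family, by 1.99 ± 0.25 (adjusted p = 2.7e-05). The 6 that rose became 3 without Hif1a Ahr KO replicate 3, and 4 or 5 without any other library. Of 13 p38 kinases and their activators 1 fell, Mapkapk3, a kinase downstream of p38, at -0.53 ± 0.15 (adjusted p = 0.02); 0 fell without Hif1a Ahr KO replicate 2 or Ahr flox replicate 1 and 3 without Hif1a Ahr flox replicate 1. In the same list 3 rose, among them Mapk11, which encodes p38 beta, with 6.33, 4.73 and 6.98 CPM in Hif1a Ahr KO cells, against 1.15, 0.713 and 1.98 CPM in Hif1a Ahr flox cells, 0.44, 0.31 and 0.395 CPM in Ahr KO cells and 0.985, 0.532 and 0.873 CPM in Ahr flox cells. All 3 Hif1a Ahr KO values lay above the other 9. Mapk11 was higher in the Hif1a Ahr line, at 2.23, and at -1.06 in the Ahr line, and the difference was 3.29 ± 0.47 (adjusted p = 0.00013). Without Ahr flox replicate 1 it was the only one of the list still called higher.

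Oxygen-dependent demethylases fell in part, 8 of 18 with 0 rising. Kdm4b, a histone demethylase, fell, at -1.59 ± 0.12 (adjusted p = 6.8e-08), Kdm3a at -1.46 ± 0.11 (adjusted p = 5.6e-08), Kdm5b at -1.22 ± 0.12 (adjusted p = 1.8e-06) and Alkbh5, an RNA demethylase, at -0.97 ± 0.08 (adjusted p = 2.1e-07). Scaling by library totals left 5 called, as did leaving out Hif1a Ahr KO replicate 2 or Hif1a Ahr flox replicate 2. Of 29 interferon response genes 8 rose and 1 fell, with a median of 0.25. Tap1, a peptide transporter of antigen presentation, rose by 0.48 ± 0.09 (adjusted p = 0.0012) and Psmb9, an immunoproteasome subunit, by 0.44 ± 0.10 (adjusted p = 0.0043). Isg15 alone fell, at -0.79 ± 0.20 (adjusted p = 0.012), and 2 fell without Hif1a Ahr KO replicate 1 or Hif1a Ahr flox replicate 2. The 8 that rose became 2 without Ahr flox replicate 1, 3 if Ahr KO replicate 2 or Ahr flox replicate 3 was left out, 4 if Hif1a Ahr KO replicate 3, Hif1a Ahr flox replicate 2 or Ahr KO replicate 1 or 3 was left out, and 5 without Hif1a Ahr KO replicate 1.

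The following lists had counts of 1 to 3 in a direction, to be read against 8.6% higher and 7.78% lower among all genes. Of 15 TGF-beta signalling genes 1 rose, Smad3, a mediator of the pathway, at 0.73 ± 0.15 (adjusted p = 0.0029), and 1 fell; the falls were 0 without Hif1a Ahr KO replicate 1, Hif1a Ahr flox replicate 1, Ahr KO replicate 1 or 3 or Ahr flox replicate 1 or 3, and 4 without Hif1a Ahr flox replicate 3. Of 9 genes of iron handling 1 rose (2 without Hif1a Ahr KO replicate 1) and 1 fell, the transferrin receptor Tfrc, at -0.51 ± 0.09 (adjusted p = 0.00077). Of 15 survival genes of the BCL-2 family 2 rose, among them Bcl2l11, which encodes the pro-death protein BIM, at 0.87 ± 0.16 (adjusted p = 0.00086); the 2 were 1 without Hif1a Ahr KO replicate 2, Hif1a Ahr flox replicate 2, Ahr KO replicate 2 or 3 or Ahr flox replicate 1 or 3. Among 17 early genes of the AP-1, Egr and Nr4a families, Fosl1 rose by 1.08 ± 0.27 (adjusted p = 0.01) and Jund was among 3 that fell, at -0.94 ± 0.15 (adjusted p = 0.00028); the 3 were 1 without Ahr flox replicate 1, Hif1a Ahr flox replicate 2 or Ahr KO replicate 2. In the circadian clock 3 of 15 fell and 1 rose, and Per2, a clock repressor, was at -0.66 ± 0.18 (adjusted p = 0.015). Of 10 MHC class II genes 2 fell and 2 rose, and when 1 library was left out 1 or 2 fell and 0 to 2 rose. None rose without Ahr flox replicate 3, Hif1a Ahr flox replicate 2, Hif1a Ahr KO replicate 3 or Ahr KO replicate 3. H2-Ab1, the beta chain of an antigen-presenting molecule, had 6.83, 3.72 and 5.35 CPM in Hif1a Ahr KO cells, against 40.1, 38.7 and 39.6 CPM in Hif1a Ahr flox cells, 46.8, 48.2 and 52.2 CPM in Ahr KO cells and 45.9, 50.8 and 48.3 CPM in Ahr flox cells, and a difference of -2.92 ± 0.21 (adjusted p = 8.3e-08).

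AhR targets were examined because the cells had lost this receptor. Of 12 genes of the AhR battery, 3 rose and 1 fell (0 without Ahr flox replicate 3). Ahrr, the receptor's repressor and a classical target, had 11.2, 3.53 and 10.1 CPM in Hif1a Ahr KO cells, against 47.6, 30.6 and 70.9 CPM in Hif1a Ahr flox cells, 9.18, 5.17 and 6.86 CPM in Ahr KO cells and 67.8, 32.8 and 52.0 CPM in Ahr flox cells. It was lower in both knockout groups than in their flox groups, without overlap, and its difference of effects was 0.26 ± 0.63 (adjusted p = 0.83). Tiparp, another target, gave -0.67 ± 0.52 (adjusted p = 0.43). By contrast Nqo1, a quinone reductase that NRF2 also controls, had 1.18, 1.10 and 1.21 CPM in Hif1a Ahr KO cells, against 1.17, 0.619 and 0.728 CPM in Hif1a Ahr flox cells, 0.275, 0.213 and 0.207 CPM in Ahr KO cells and 1.04, 0.741 and 0.891 CPM in Ahr flox cells, lowest in Ahr KO cells. Its difference was 2.40 ± 0.38 (adjusted p = 0.00032), with 0.47 in the Hif1a Ahr line and -1.93 in the Ahr line. Nfe2l2, which encodes NRF2, rose by 1.13 ± 0.17 (adjusted p = 0.00016), with 0.63 and -0.50 in the same lines. Among 16 NRF2 and antioxidant genes, 3 rose and 2 fell. Gclm, of glutathione synthesis, rose by 1.08 ± 0.15 (adjusted p = 8.2e-05) and Txnrd1, thioredoxin reductase, by 0.59 ± 0.09 (adjusted p = 0.00012). The largest rise of all named genes was that of Ugt1a6a, a glucuronosyltransferase, with 19.2, 22.6 and 18.7 CPM in Hif1a Ahr KO cells, against 0.575, 0.244 and 2.02 CPM in Hif1a Ahr flox cells, 0.293, 0.232 and 0.301 CPM in Ahr KO cells and 0.466, 0.684 and 0.582 CPM in Ahr flox cells, and a difference of 5.46 ± 0.81 (adjusted p = 0.00039). Its relatives Ugt1a10, Ugt1a9 and Ugt1a7c were at 4.78, 4.74 and 3.59. These genes share their last exons, so how estimated counts are split between them is uncertain.

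Among the largest differences were several genes not described above. Apln, a secreted peptide ligand that hypoxia induces, had 1.29, 1.05 and 1.31 CPM in Hif1a Ahr KO cells, against 19.1, 16.4 and 18.1 CPM in Hif1a Ahr flox cells, 47.2, 36.3 and 48.7 CPM in Ahr KO cells and 29.9, 25.5 and 31.6 CPM in Ahr flox cells. Its 3 Hif1a Ahr KO libraries lay below 1.5 CPM and the rest above 16, and the difference was -4.48 ± 0.18 (adjusted p = 3.8e-11). Smtnl2, a smoothelin-like protein, fell, at -4.56 ± 0.30 (adjusted p = 1.3e-08), Thsd1 at -4.23 ± 0.36 (adjusted p = 2e-06), Parm1 at -4.33 ± 0.70 (adjusted p = 0.00047) and Tmem132e at -4.19 ± 1.02 (adjusted p = 0.012). Scd1, a fatty acid desaturase, was variable among flox libraries, at 12.1, 24.0 and 4.21 CPM in Hif1a Ahr flox cells and 42.1, 14.6 and 11.02 CPM in Ahr flox cells. Its fall of -4.23 ± 1.07 (adjusted p = 0.017) was lost when only the 12 libraries were fitted (adjusted p = 0.0543). Mmp9, a matrix protease, fell, at -4.15 ± 1.12 (adjusted p = 0.022), and its adjusted p passed 0.05 without Ahr flox replicate 1 or 3, Hif1a Ahr flox replicate 2, Hif1a Ahr KO replicate 3 or Ahr KO replicate 2, where it reached 0.0629. Among the rises, Aff3, a nuclear protein of the super elongation complex family, had 9.58, 11.6 and 13.9 CPM in Hif1a Ahr KO cells, against 0.97, 0.581 and 1.22 CPM in Hif1a Ahr flox cells, 0.422, 0.387 and 0.545 CPM in Ahr KO cells and 0.985, 0.323 and 0.964 CPM in Ahr flox cells, and gave 4.41 ± 0.52 (adjusted p = 2.2e-05). Grtp1 rose by 3.84 ± 0.37 (adjusted p = 1.1e-06), Cd300lb, a receptor of the CD300 family, by 3.52 ± 0.42 (adjusted p = 3.4e-05) and Synpo, an actin-binding protein, by 3.36 ± 0.30 (adjusted p = 5.3e-07).

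Hif1a loss was next compared where Ahr was intact, in Hif1a KO against Hif1a flox cells, with 5920 genes called (35.4%). Both measures called 2402 genes, all in the same direction, which is 87.6% of the genes called for added Hif1a loss and 40.6% of those called in the Hif1a line. Across 11984 genes of at least 1 CPM, which share a reference transcriptome and culture but no library, Pearson's r was 0.87 and the slope 0.81, as a description. Glycolysis had a median of -1.79 as the added effect and -2.04 in the Hif1a line, HIF targets -1.52 in both, sterol synthesis -0.72 and -0.99, and mitochondrial transcripts 0.68 and 0.73. Egln3 was at -4.05 and -4.67 and Slc16a3 at -3.44 and -3.99.

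The test of the difference between the added effect and the effect in the Hif1a line called 6 genes, or 0.0358% of those tested, and 997 at an unadjusted p under 0.05 (5.95%). DESeq2 called 21 and limma 11, and without Hif1a Ahr KO replicate 1 edgeR called 8 lower beside those higher. Of the 341 genes called for added Hif1a loss and not in the Hif1a line, 148 had an unadjusted p under 0.05 for the difference. The comparison is unequal, since a shared effect of the recombinase cancels in the added effect and is carried in that of the Hif1a line. No member of the glycolysis, HIF target or cell cycle lists was called different at the adjusted threshold. At an unadjusted p under 0.05 there were 7 of 20 glycolysis genes, 10 of 32 HIF targets and 0 of 36 cell cycle genes, against 5.95% of all genes. The added effect was above that in the Hif1a line for 17 of 20 glycolysis genes, with a median difference of 0.23, and below it for 32 of 36 cell cycle genes, with a median difference of -0.11. Anxa2, a membrane-binding protein and HIF target, had the smallest adjusted p of the HIF target list, with a difference of 1.27 ± 0.23 (adjusted p = 0.058). For Egln3 the 95% interval of the difference ran from -0.39 to 1.63 (adjusted p = 0.9).

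**Figure D4:**
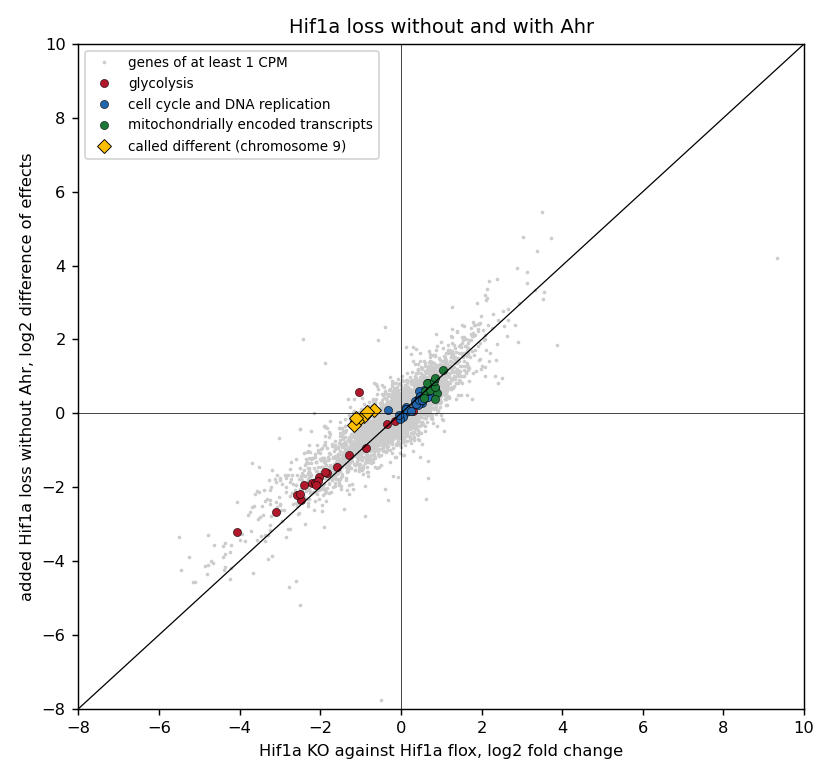
Log2 difference of effects for added Hif1a loss without Ahr (vertical) against the log2 fold change of Hif1a KO over Hif1a flox cells (horizontal) for 11984 genes of at least 1 CPM, with the line of equality. Glycolysis genes (red, median -1.79 on the vertical axis) lie along the lower left of the line, cell cycle (blue) and mitochondrial transcripts (green) mostly right of and above 0, and the 6 genes called different (yellow diamonds) lie near 0 on the vertical axis and near -1 on the horizontal.

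All 6 genes that departed lie on chromosome 9, within 22 neighbouring tested genes in the annotation's order. All 6 were lower in each knockout group than in its flox group, and their difference of effects lay between -0.32 and 0.08. A fall shared by every knockout group cancels in the added effect and stays in that of the Hif1a line, which gives a positive departure by arithmetic. Ppib, a cyclophilin of the endoplasmic reticulum, had 145, 127 and 128 CPM in Hif1a Ahr KO cells, against 259, 283 and 301 CPM in Hif1a Ahr flox cells, 138, 141 and 139 CPM in Ahr KO cells and 257, 269 and 278 CPM in Ahr flox cells. Both knockout groups were low without overlap with their flox groups. Its difference of effects was -0.13 ± 0.09 (adjusted p = 0.35), its effect in the Hif1a line -1.11 and the departure 0.97 ± 0.11 (adjusted p = 0.00037). Bnip2 gave a departure of 0.86 ± 0.09 (adjusted p = 0.00037), Usp3, a deubiquitinase, 0.88 ± 0.10 (adjusted p = 0.00037), Rab8b, a vesicle GTPase, 0.90 ± 0.13 (adjusted p = 0.0055), Snx1, a sorting nexin, 0.84 ± 0.12 (adjusted p = 0.0055) and Tpm1, a tropomyosin, 0.76 ± 0.13 (adjusted p = 0.0479). The call for Tpm1 was lost in 15 of the 18 fits that left out 1 library, where its departure lay between 0.71 and 0.80. Of the 22 neighbours, 20 were lower in Hif1a Ahr KO against Hif1a Ahr flox cells, 20 in Ahr KO against Ahr flox cells and 18 in Hif1a KO against Hif1a flox cells, where 16.5%, 4.78% and 17.8% of all genes were lower. Their medians were -1.12, -0.98 and -0.92, and that of the difference of effects was -0.10, with 4 of the 22 called against 16.4% of all genes. Snx1 was among the 4, at -0.32 ± 0.10 (adjusted p = 0.031), a call lost in 8 of the 12 fits that left out 1 library. This stretch was picked out after its values were seen.

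Markers of other cell types were set beside these results, and their part in them was not tested. Of 9 NK markers Klrk1 and Tbx21 rose and Gzma fell, calls lost in 6, 6 and 9 of the 12 fits that left out 1 library. Of 10 T cell markers 2 fell. Cd3g, a chain of the T cell receptor complex, had 8.34, 4.26 and 13.1 CPM in Hif1a Ahr KO cells, against 79.1, 82.2 and 89.2 CPM in Hif1a Ahr flox cells, 25.6, 26.2 and 26.9 CPM in Ahr KO cells and 78.6, 65.5 and 78.3 CPM in Ahr flox cells, a difference of -1.79 ± 0.43 (adjusted p = 0.013), and Cd3d, another chain, gave -1.24 ± 0.34 (adjusted p = 0.022), with an adjusted p of 0.0504 without Ahr flox replicate 2. The list summed to 432 to 455 CPM in Hif1a Ahr KO cells, 534 to 578 CPM in Hif1a Ahr flox cells, 466 to 497 CPM in Ahr KO cells and 527 to 555 CPM in Ahr flox cells. The 4 neutrophil markers summed to 0 to 0.197 CPM in Hif1a Ahr KO cells, 0.837 to 4.74 CPM in Hif1a Ahr flox cells, 0.348 to 1.28 CPM in Ahr KO cells and 0.346 to 1.44 CPM in Ahr flox cells. S100a8 and S100a9 fell, the second a call lost in 8 of those fits. Of 3 macrophage and monocyte markers Csf1r and Lyz2 fell and Cd68 rose, with sums of 34.5 to 44.9, 34.6 to 44.1, 20.1 to 25.8 and 27.98 to 53.1 CPM in Hif1a Ahr KO, Hif1a Ahr flox, Ahr KO and Ahr flox cells. The call for Csf1r was lost in 7 of the 12 fits that left out 1 library. Mcpt8, a basophil protease, fell, at -2.16 ± 0.54 (adjusted p = 0.016) in a list of 2. Of 3 dendritic cell markers Itgax rose and H2-Ab1 fell. Of 3 markers of ILC2 and ILC3, Il1rl1 rose by 2.30 ± 0.49 (adjusted p = 0.0031). Of 3 platelet and 2 stromal markers 0 were called in edgeR's test.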

How the data were processed

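RNA was sequenced from 18 libraries of mouse NK cells (6 groups of 3) with a strand-specific mRNA protocol, per the labels. Per the submitters' processing notes, the authors' tools were kallisto 0.4.6, after Trim Galore 0.6.4, and edgeR 3.17, on GRCm39; settings and transcript annotation are not given in the sources used here. The authors deposited expected counts per gene, estimated and not normalised (65.5% to 67.8% of values above 0 are not whole), and log2 CPM on the log2 scale, which a recomputation from those counts (prior count 2) matched with a largest difference of 0. Of 56953 gene identifiers, 52029 matched a symbol; the 4924 others hold 0.315% of counts and were tested, not named.

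Estimated counts were rounded to whole numbers and tested with edgeR 4.0.16 under R 4.3.3 (TMM, filterByExpr by group, robust quasi-likelihood F test, two-sided, 1 mean per group over all 18 libraries, 12 residual degrees of freedom, common biological coefficient of variation 0.117). SE is the log2 value divided by the square root of F. CPM in the text are scaled by TMM. Chi-square per degree of freedom between libraries of a group was 16.3 to 68.0, where counting error alone gives 1, so replicate spread more than depth limits precision. In simulated counts for the 16743 genes, 100 genes changed by log2 size 2 and 100 by size 1, in the Hif1a Ahr KO group alone. Of these, 84% and 56% were recovered, with 7.89% false among the called. The simulation had no other difference between groups and no replicate effect, unlike the data. These rates may therefore not hold for the data.

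Named genes were Hif1a, Ahr, Arnt and Ncr1, the 10 largest rises and 10 largest falls among called genes of at least 1 CPM without overlap between groups, the up to 5 members per list with the strongest calls, the genes called for the departure, and uncalled list members; a few genes that meet this rule are not reported here. The members and gene lists, and Pygl, Gapdh, Pgk1, Hk2, Ldha, Vegfa and other called members beyond these 5, were chosen with earlier results of these data known. Alternatives were DESeq2 1.42.0, limma 3.58.1 on the deposited log2 CPM, other scalings and filters, the 12 libraries alone, unrounded counts, a replicate block and leaving out each library. Chromosomes and gene order come from an annotation of GRCm38 and serve only as numbers and neighbours.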

Additional observations from a re-analysis of the deposited data

Results flagged for a closer look

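The effect of knockout differed between the Hif1a Ahr line and the Ahr line, by the test of the difference itself, for 1440 genes higher and 1303 lower. The same kind of test, of added Hif1a loss without Ahr against the effect in the Hif1a line, called 6 genes, all higher. Their departures were 0.97 for Ppib, 0.84 for Snx1, 0.88 for Usp3, 0.90 for Rab8b, 0.76 for Tpm1 and 0.86 for Bnip2 on the log2 scale. All 6 lie in 1 stretch of chromosome 9 and were lower in each of the 3 knockout groups than in its flox group. A fall shared by the 3 knockout groups cancels in the added effect and stays in that of the Hif1a line. It gives a positive departure by arithmetic, so these calls cannot show that Hif1a loss acts differently without Ahr.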

How the results depend on the processing

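The counts of genes that rose (1059 to 1998) and fell (934 to 1821) with added Hif1a loss stayed within 1.5 times the main counts under every alternative run, and all genes called both there and in the main test kept their direction. Of 232 named genes and list members called, 65 lost the call under at least 1 alternative, 58 of them without 1 library, and 0 turned direction. With a replicate block, 1998 rose and 1821 fell, 1033 and 1388 genes were higher and lower in Ahr KO against Ahr flox cells, 30 and 5 departed from the Hif1a line, and Ahr itself was called, at -0.53 (adjusted p = 0.0034). Same-numbered libraries of the 2 lines correlated between 0.067 and 0.534. Each knockout library correlated best with the flox library of its own number. Hif1a Ahr flox replicate 1, however, correlated better with Hif1a Ahr KO replicate 3 (0.088) than with its own number. The rule for taking the numbers as pairs asked every same-numbered correlation to exceed 0.1. Hif1a Ahr replicate 1, at 0.067, did not, so the numbers were not taken as pairs. In the Ahr line same-numbered libraries correlated at 0.333 to 0.534 and the others at -0.257 to -0.160. Any spread shared by same-numbered libraries stays in the error of the main test, which called 2743 genes, against 3819 with the block. The departing genes were 18 higher and 3 lower with DESeq2, 3 lower with limma, 1 lower with library totals or no filter on low counts, and 0 to 8 lower without 1 library. In Ahr KO against Ahr flox cells, DESeq2 gave 573 higher; without 1 library 110 to 441 were higher and 357 to 896 lower. For Hif1a Ahr flox against Ahr flox cells DESeq2 gave 43 higher and 29 lower, and 6 to 14 were lower without 1 library. The cause of these shifts was not tested. Library totals moved the median of all genes to 0.08. Depth was alike in all libraries; genes of few counts, such as the neutrophil markers, are limited by it.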
